A study of Homo sapiens with 6 samples.

Results

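The enzymes of the pentose phosphate pathway were followed in HCT116 cells, a line of human colorectal cancer cells, with and without depletion of STBD1, a glycogen-binding protein proposed as a receptor for the autophagy of glycogen. The 7 enzymes H6PD, PGLS, PGD, RPIA, RPE, TKT and TALDO1 were chosen by symbol, and all 7 were found among the 58395 genes of the expression tables and among the 15566 genes with enough counts to be tested. RNA was sequenced from 3 biological replicates that carried a non-target hairpin (shControl) and 3 that carried a hairpin against STBD1 (shSTBD1). Both groups were HCT116 cells grown in DMEM with fetal bovine serum and antibiotics, and both carried a lentiviral hairpin vector under drug selection. Each group rested on 1 hairpin, and whether the replicates came from separate infections was not stated, so that the p-values measure the spread between these cultures.

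The pathway splits from glycolysis at glucose 6-phosphate. Its oxidative branch oxidizes the sugar to ribulose 5-phosphate and yields NADPH, the reductant of lipid synthesis and of glutathione and thioredoxin recycling. Its non-oxidative branch interconverts sugar phosphates of different length, either to supply ribose 5-phosphate for nucleotides or to return carbon to glycolysis. The sequencing asked which genes differ when STBD1, studied for its part in tumor growth, is depleted, and the comparison of shSTBD1 with shControl shows whether the RNA of these enzymes differed.

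The libraries held 17689097 to 21668274 expected counts each, where an expected count is the authors' estimate of the reads from a gene. STBD1 itself was listed at 5.73, 5.83 and 5.27 TPM in shControl and at 4.19, 3.22 and 3.27 TPM in shSTBD1, where TPM is the share of transcripts per length within a library. By edgeR's quasi-likelihood test, the source of every adjusted p not credited to another tool, the log2 fold change of STBD1 was -0.64 (adjusted p = 2.9e-04, standard error 0.098), and in limma on log2(TPM + 1) it was -0.54 (adjusted p = 0.064). shControl 1 stood apart from the other controls, with a mean chi-square per gene of 6.8 and 5.4 against them and 1.64 between the other two. Of 7 epithelial markers, CDH1, KRT8, KRT18, KRT19, CLDN4 and CLDN7 were called higher in shSTBD1 (log2 fold changes of 0.13 to 0.29), and EPCAM was not (0.040). Their summed level was 3034 to 3053 TPM in shControl and 3432 to 3562 TPM in shSTBD1. Of 5 colon markers only CDX2 could be tested (-0.072, adjusted p = 0.66), CDX1 was listed at 0 everywhere, VIL1, CDH17 and LGALS4 were close to 0, and the summed level of the 5 was 7.15 to 7.76 TPM in shControl and 4.86 to 6.31 in shSTBD1. The summed leukocyte markers were higher in shSTBD1 (11.3 to 12.7 TPM) than in shControl (7.31 to 8.45 TPM), nearly all of it CD68 (log2 fold change 0.47, adjusted p = 0.0027), with the defining PTPRC and CD3E listed at 0 in all libraries. The summed fibroblast markers were 15.02 to 20.03 TPM in shControl and 17.2 to 20.8 TPM in shSTBD1. Nearly all of that sum was COL1A1 (log2 fold change 0.13, adjusted p = 0.25), and COL1A2, COL3A1, PDGFRB and LUM were too low to test. The endothelial markers summed to 0.27 to 0.69 TPM in shControl and 0.19 to 0.61 TPM in shSTBD1. The part of these markers in the results on the enzymes was not tested. In such bulk RNA, fewer cells that use a gene and less of its RNA per cell cannot be told apart.

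The 3 oxidative enzymes analysed here were lower in shSTBD1, and the 4 non-oxidative enzymes were not called. PGD, H6PD and PGLS fell by 0.18, 0.25 and 0.19 on the log2 scale. Of the 7 enzymes, 3 were thus called lower and 0 higher, while 7.54% of all tested genes were called lower and 8.22% higher at an adjusted p under 0.05. Of the 4186 tested genes with a mean of at least 30 TPM, to which all the enzymes but H6PD belong, 10.6% were called lower and 15.1% higher. The median log2 fold change of the 7 enzymes was -0.079, and that of all tested genes was 0.0023. The study's methods set a stricter unadjusted threshold, 1e-05, on p-values from DESeq2. For other analyses they set relaxed ones, among them 0.05 for shSTBD1 against shControl. In edgeR 371 genes passed the threshold of 1e-05 and 0 of the 7 enzymes did. In DESeq2 PGD alone of the enzymes passed it (unadjusted p = 3.2e-06). An unadjusted p under 0.05 was reached by 4 of the enzymes in edgeR, TKT being the fourth, and by 4 in DESeq2.

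**Figure D1:**
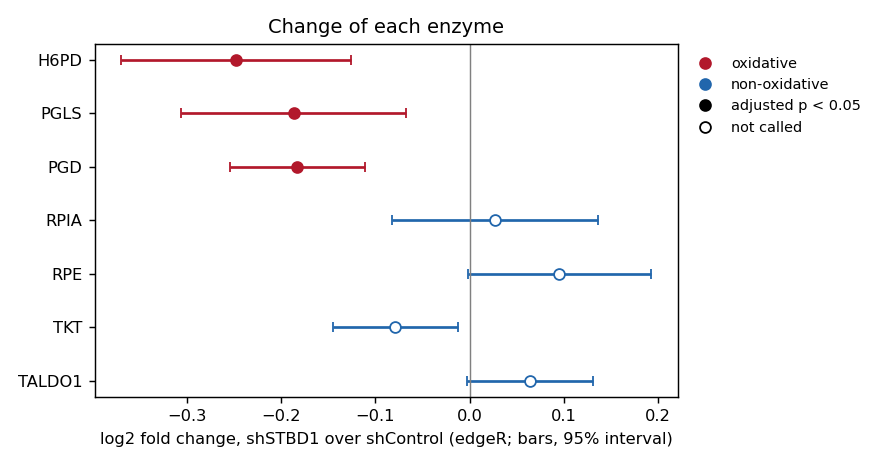
The plot shows the log2 fold change of each enzyme in shSTBD1 over shControl from edgeR, with the 95% interval as bars and filled points where the adjusted p was under 0.05. The 3 oxidative enzymes lie between -0.25 and -0.18, and the 4 non-oxidative enzymes lie between -0.079 and 0.095.

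The upstream sequences of PGD and PGLS are shown because both were called lower and both windows end at the start of the canonical transcript. Each run holds the 250 bases before the RefSeq start site on GRCh38.p14, 5′ to 3′ on the strand of the gene. Capitals mark the letters of 4 motifs searched on both strands: the antioxidant response element TGACNNNGC, the E-box CACGTG, the GC box GGGCGG and the CCAAT box CCAAT. The windows are chr1:10398814-10399063 (plus strand) for PGD and chr19:17511399-17511648 (plus strand) for PGLS.
PGD: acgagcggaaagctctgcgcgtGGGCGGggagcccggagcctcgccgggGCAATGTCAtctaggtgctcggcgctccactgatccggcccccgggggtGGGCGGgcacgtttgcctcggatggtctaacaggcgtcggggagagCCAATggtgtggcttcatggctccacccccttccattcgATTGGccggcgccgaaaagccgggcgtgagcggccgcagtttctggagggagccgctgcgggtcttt
PGLS: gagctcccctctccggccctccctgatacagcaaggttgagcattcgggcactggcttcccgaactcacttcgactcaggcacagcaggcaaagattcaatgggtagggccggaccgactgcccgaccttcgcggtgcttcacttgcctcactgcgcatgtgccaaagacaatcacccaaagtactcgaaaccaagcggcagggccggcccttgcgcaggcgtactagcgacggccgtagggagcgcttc

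Upstream of PGD the window held 2 GC boxes, 2 CCAAT boxes and 1 match to the antioxidant response element, GCAATGTCA on the reverse strand, which begins 201 bases before the start. The PGLS window held none of the 4 motifs. For 6 of the 7 enzymes the RefSeq start was also the start of the canonical GENCODE transcript, although another PGD transcript begins farther upstream, at the gene start of 10398592. For H6PD the RefSeq start lay 5073 bases inside the canonical transcript, so that its window is not the sequence before the gene start given below, and it is not described. The 4 non-oxidative genes, RPIA, RPE, TKT and TALDO1, all held a GC box and a CCAAT box, and RPE also held TGACAGCGC, the second match to the antioxidant response element. Among the windows of 35116 genes in the RefSeq table, 42.6% held a GC box, 32.0% a CCAAT box, 10.9% the antioxidant response element and 6.34% an E-box, which was in 0 of the enzymes' windows. The GC content was 68.4% in the PGD window and 61.6% in that of PGLS, against a median of 58.0% over all windows.

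PGD (ENSG00000142657) encodes 6-phosphogluconate dehydrogenase, which oxidizes 6-phosphogluconate to ribulose 5-phosphate and forms NADPH. It lies on chromosome 1 of GRCh38 from 10398592 to 10420511 on the plus strand, and its canonical transcript in GENCODE release 44 has 13 exons. Its level was 179, 173 and 178 TPM in shControl 1 to 3 and 153, 153 and 151 TPM in shSTBD1 1 to 3. All shSTBD1 libraries lay below all shControl libraries, and the spread within shSTBD1 was narrow. The means were 177 ± 3.13 TPM in shControl and 152 ± 1.3 TPM in shSTBD1 (SD, n = 3), lower by 13.9% (exact permutation test, two-sided, p = 0.1; 3 libraries against 3 cannot give less). The log2 fold change was -0.18 (standard error 0.034, 95% interval -0.25 to -0.11, adjusted p = 0.0016). It was called with each library left out in turn, at -0.15 (adjusted p = 2.5e-04) without shControl 1.

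H6PD (ENSG00000049239) encodes hexose-6-phosphate dehydrogenase, a bifunctional enzyme of the endoplasmic reticulum lumen that carries out the first reactions of the branch there and forms NADPH inside that compartment. It lies on chromosome 1 from 9234774 to 9271337 on the plus strand, with 5 exons in its canonical transcript. Its level was 5.34, 4.88 and 4.97 TPM in shControl 1 to 3 and 4.05, 3.94 and 4.40 TPM in shSTBD1 1 to 3. The groups did not overlap, and shSTBD1 3 lay closest to the controls. The means of 5.06 ± 0.24 and 4.13 ± 0.24 TPM (SD, n = 3) differed by 18.4% (two-sided exact permutation test, p = 0.1). In edgeR it had a log2 fold change of -0.25 (standard error 0.057, 95% interval -0.37 to -0.13, adjusted p = 0.0076). H6PD was the least abundant of the 7 enzymes per length, yet its long transcript, with a mean effective length of 8600.4 bases in shControl and 8722 in shSTBD1, gave 556 to 773 expected counts per library. Without shSTBD1 2 the log2 fold change was -0.23 with an adjusted p of 0.0505, just past the threshold, and without shControl 1 it was -0.22 (adjusted p = 0.015).

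PGLS (ENSG00000130313) encodes 6-phosphogluconolactonase, which opens the lactone made by the first oxidation and so provides the substrate of PGD. It lies on chromosome 19 from 17511636 to 17521288 on the plus strand, with 5 exons. Its level was 40.6, 44.5 and 43.3 TPM in shControl 1 to 3 and 39.0, 36.4 and 35.9 TPM in shSTBD1 1 to 3. The groups did not overlap, but shControl 1 and shSTBD1 1 lay closer together than the SD of either group. The means were 42.8 ± 2.01 and 37.1 ± 1.68 TPM (SD, n = 3), lower by 13.3% (two-sided exact permutation test, p = 0.1). PGLS had a log2 fold change of -0.19 (standard error 0.056, 95% interval -0.31 to -0.068, adjusted p = 0.033). This call was the least firm of the 3: it was lost without any 1 library other than shControl 1 (adjusted p from 0.051 to 0.12), with DESeq2 (adjusted p = 0.11) and with scaling by library size alone (adjusted p = 0.056). Its fold change on the log2 scale stayed between -0.24 and -0.17 in all of the settings tried.

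**Figure D2:**
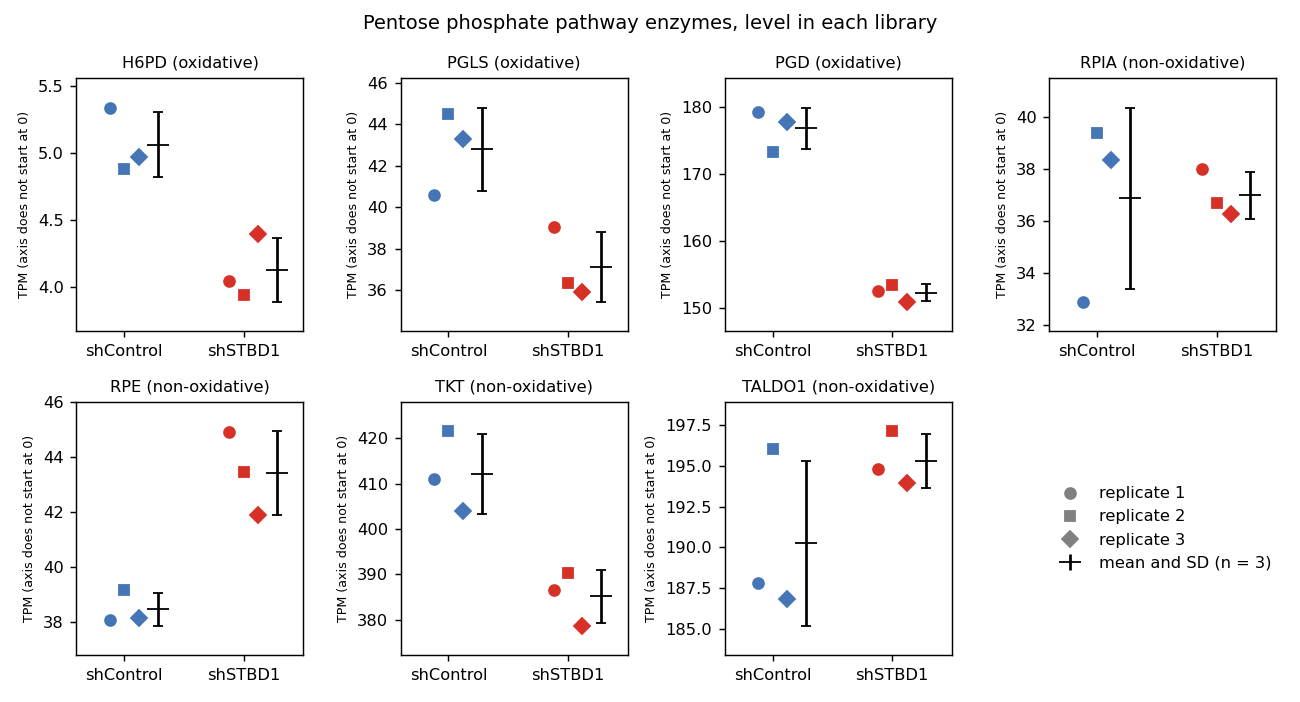
The panels show the level of each enzyme in TPM in each of the 6 libraries, with a marker for each replicate and the mean and SD of each group beside them; the vertical axes do not start at 0. All shSTBD1 points lie below all shControl points for H6PD, PGLS, PGD and TKT and above them for RPE, and the groups overlap for RPIA and TALDO1.

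In the non-oxidative branch 2 enzymes carry out the isomerizations of ribulose 5-phosphate, and TKT and TALDO1 then transfer carbon units between sugars. None of the 4 passed the test, and their values went in both directions. Counted by libraries, 4 of the 7 enzymes had every shSTBD1 library below every shControl library in TPM, where 13.5% of all tested genes did, and 1 had every library above, where 10.9% did.

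TKT (ENSG00000163931) encodes transketolase, which moves 2-carbon units and links the branch to glycolysis. It lies on chromosome 3 from 53224712 to 53256052 on the minus strand. TKT had the highest level of the 7, at 411, 422 and 404 TPM in shControl 1 to 3 and 386, 390 and 379 TPM in shSTBD1 1 to 3. The groups did not overlap (means 412 ± 8.82 and 385 ± 5.93 TPM, SD, n = 3). For TKT the log2 fold change was -0.079 (standard error 0.031, 95% interval -0.14 to -0.013, adjusted p = 0.099). It was called lower, at -0.10 with an adjusted p of 0.039, when each library was adjusted for its trend against effective length.

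TALDO1 (ENSG00000177156) encodes transaldolase, which moves 3-carbon units. It lies on chromosome 11 from 747415 to 765012 on the plus strand. Its level was 188, 196 and 187 TPM in shControl 1 to 3 and 195, 197 and 194 TPM in shSTBD1 1 to 3. In TPM the groups overlapped through shControl 2 (two-sided exact permutation test, p = 0.3). In CPM, counts scaled to the library total by TMM factors, they did not, with 166 to 170 in shControl and 174 to 179 in shSTBD1. The log2 fold change was 0.064 (standard error 0.031, 95% interval -0.0022 to 0.13, adjusted p = 0.18).

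RPE (ENSG00000197713) encodes ribulose-phosphate 3-epimerase, which forms xylulose 5-phosphate, and lies on chromosome 2 from 210002565 to 210022260 on the plus strand. Its level was 38.1, 39.2 and 38.2 TPM in shControl 1 to 3 and 44.9, 43.5 and 41.9 TPM in shSTBD1 1 to 3. All shSTBD1 libraries were above the controls, with means of 38.5 ± 0.60 and 43.4 ± 1.52 TPM (SD, n = 3; two-sided exact permutation test, p = 0.1), a difference of 12.9%. In CPM the groups overlapped, since shSTBD1 3 at 63.1 lay below shControl 3 at 64.1, and the log2 fold change was 0.095 (standard error 0.046, 95% interval -0.0022 to 0.19, adjusted p = 0.18). The effective length of RPE, the mean over its transcripts weighted by their estimated abundance, was 1766, 1850 and 1926 bases in shControl 1 to 3 and 1777, 1691 and 1690 bases in shSTBD1 1 to 3, a change of -6.92% in the mean. For the other enzymes it differed by -0.28% to 1.41%. With offsets for effective length the log2 fold change of RPE was 0.18 (adjusted p = 0.093).

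RPIA (ENSG00000153574) encodes ribose 5-phosphate isomerase, whose product feeds nucleotide synthesis, and lies on chromosome 2 from 88691673 to 88750929 on the plus strand. Its level was 32.9, 39.4 and 38.3 TPM in shControl 1 to 3 and 38.0, 36.7 and 36.3 TPM in shSTBD1 1 to 3. The shSTBD1 libraries all lay within the range of the controls, where shControl 1 was low. RPIA had a log2 fold change of 0.027 (standard error 0.052, 95% interval -0.082 to 0.14, adjusted p = 0.78) and was -0.033 without shControl 1. The interval leaves room for a change of about the size measured for RPE or TALDO1 but not for a fall like that of PGD.

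Levels per length set the enzymes in a fixed order with 1 exchange. In shControl the order was TKT, TALDO1, PGD, PGLS, RPE, RPIA and H6PD, and the libraries of neighbours overlapped only for RPE and RPIA. In shSTBD1 RPE stood above PGLS, and the neighbours that overlapped were PGLS and RPIA. TKT ranked 240th of the tested genes in shControl and 270th in shSTBD1, and H6PD ranked 10405th and 10906th. The ratio of TALDO1 to PGD was 1.05, 1.13 and 1.05 in shControl 1 to 3 and 1.28, 1.29 and 1.29 in shSTBD1 1 to 3. The ratio of RPE to PGLS was 0.94, 0.88 and 0.88 in shControl and 1.15, 1.20 and 1.17 in shSTBD1. The ratio of PGD to PGLS, both oxidative, overlapped between the groups, at 3.90 to 4.42 and 3.91 to 4.22.

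The summed level of the 7 enzymes was 895, 919 and 893 TPM in shControl 1 to 3 and 860, 861 and 842 TPM in shSTBD1 1 to 3. The mean was 5.34% lower in shSTBD1. The oxidative enzymes made up 25.2%, 24.2% and 25.3% of this sum in shControl and 22.8%, 22.5% and 22.7% in shSTBD1. Most of that difference lay in PGD, at 19.6% ± 0.64 of the sum in shControl and 17.8% ± 0.088 in shSTBD1 (SD, n = 3). TALDO1 took 21.1% ± 0.23 and 22.9% ± 0.19 of the sum, and TKT 45.7% ± 0.39 and 45.1% ± 0.20. The oxidative sum was 225 ± 1.76 TPM in shControl and 193 ± 2.23 TPM in shSTBD1, and the non-oxidative sum was 678 ± 16.0 and 661 ± 8.90 TPM (SD, n = 3). These sums are descriptions of the chosen enzymes and were not tested.

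H6PD and PGD lie on the short arm of chromosome 1, 1127254 bases apart, with 14 tested genes between them. Of these 1 was called lower and 0 higher, and their median log2 fold change was 0.0050. Within 500000 bases of H6PD, 1 of 10 tested genes was called lower and 0 higher. Around PGD the counts were 0 lower and 1 higher of 14, and around PGLS 1 lower and 3 higher of 29. Around TALDO1 they were 0 lower and 8 higher of 42. Around TKT, RPE and RPIA they were 0 lower of 12, 6 and 2, with 1, 1 and 0 higher. Over all tested genes 7.54% were called lower and 8.22% higher, and differences from these shares were not tested. RSEM's posterior standard deviation, the uncertainty of its estimated count, was at most 0.43% of the count for RPE, 0.085% for PGLS and 0 for the other enzymes. For STBD1 it reached 10.5%. Of 13 related genes and pseudogenes listed, 11 were in the tables, and they held together at most 0.57 TPM in any library.

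For each called enzyme the gene with the most similar profile was sought among genes of at least 10 TPM, by Pearson's correlation of log2 CPM over the 6 libraries. It was WDR81 for PGD (r = 0.998, log2 fold change of WDR81 -0.37, adjusted p = 1.7e-04). For PGLS it was SLC39A6, a zinc transporter (r = 0.998, log2 fold change -0.085, adjusted p = 0.075), and for H6PD it was TAF1, a subunit of the general transcription factor TFIID (r = 0.996, log2 fold change -0.12, adjusted p = 0.051). With 6 points that fall into 2 groups, 721, 380 and 337 genes reached r above 0.9 with PGD, PGLS and H6PD.

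The steps around the pathway were read from 6 lists of 71 genes, of which 59 were tested. Of these 14 were called higher (23.7%) and 3 lower (5.08%), with a median log2 fold change of 0.026. Over all tested genes the shares were 8.22% higher and 7.54% lower, and among those of at least 30 TPM they were 15.1% and 10.6%; the difference between the lists and other genes was not tested. The value without shSTBD1 1 was 7 called genes (5 higher, 2 lower) and without shSTBD1 3 it was 9 (7 higher, 2 lower). In limma on log2(TPM + 1) 0 of these genes were called, with 19 at an unadjusted p under 0.05.

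NADPH has other sources in the cell, and 14 genes for them or for linked malate, folate and NAD kinase steps were listed. Not every listed enzyme forms NADPH itself, and the cofactor each one used was not tested. Of 11 tested, 3 rose, 1 fell and 7 did not pass. IDH2, the mitochondrial NADP-dependent isocitrate dehydrogenase, was 41.5, 40.6 and 37.8 TPM in shControl 1 to 3 and 49.5, 48.2 and 45.4 TPM in shSTBD1 1 to 3, with no overlap (log2 fold change 0.25, standard error 0.046, adjusted p = 0.0012). ME2, a mitochondrial malic enzyme, and MTHFD2, a mitochondrial folate dehydrogenase and the most abundant gene of the list, had log2 fold changes of 0.16 (adjusted p = 0.012) and 0.098 (adjusted p = 0.034). MTHFD1L, the mitochondrial formyltetrahydrofolate synthetase, was 62.1, 60.1 and 56.1 TPM in shControl and 51.8, 50.4 and 54.9 TPM in shSTBD1, and fell by 0.25 on the log2 scale (standard error 0.041, adjusted p = 5.2e-04). With offsets for effective length 0 of the 11 genes were called, and MTHFD1L was at -0.17 (adjusted p = 0.14).

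Among 16 tested genes listed as reductases that draw on NADPH directly or through thioredoxin and related carriers, 5 rose and 1 fell. Not every listed enzyme draws on NADPH, and the cofactor each one used was not tested. BLVRB, biliverdin reductase B, had the largest log2 fold change among those called, from 94.6, 108 and 116 TPM in shControl 1 to 3 to 134, 141 and 140 TPM in shSTBD1 1 to 3 (log2 fold change 0.40, standard error 0.052, adjusted p = 6.2e-05). TXNRD1, the cytosolic thioredoxin reductase, rose by 0.21 (adjusted p = 1.1e-04). SRD5A1, a steroid reductase, rose by 0.18 (adjusted p = 0.027), and by 0.37 with offsets for effective length. NQO1, a quinone reductase, was called at 0.10 (adjusted p = 0.042), but was at 0.052 (adjusted p = 0.24) with the trend against effective length and lost its call without any 1 shSTBD1 library (adjusted p from 0.10 to 0.17). RRM1, the large subunit of the ribonucleotide reductase that makes deoxyribonucleotides, was 101, 94.7 and 115 TPM in shControl and 89.7, 82.4 and 83.1 TPM in shSTBD1, and fell by 0.31 on the log2 scale (standard error 0.036, adjusted p = 1.4e-05). Its partner RRM2, the most abundant gene of the list over both groups, did not pass (0.032, adjusted p = 0.51). RRM2B, the p53-inducible small subunit, was called at 0.12 (adjusted p = 0.023), but its sign turned to -0.041 in limma on log2(TPM + 1).

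The ribose 5-phosphate made by the pathway is activated by the phosphoribosyl pyrophosphate synthetases before purine, pyrimidine and NAD synthesis. Of 9 tested genes of that step and its first users, 2 rose and 0 fell. APRT, which salvages adenine with phosphoribosyl pyrophosphate, was 193, 210 and 216 TPM in shControl 1 to 3 and 257, 245 and 241 TPM in shSTBD1 1 to 3 (log2 fold change 0.27, standard error 0.037, adjusted p = 1.1e-04). NAMPT, of NAD salvage, was called at 0.13 (adjusted p = 0.0095), but it was at 0.052 (adjusted p = 0.53) with offsets for effective length and at 0.041 (adjusted p = 0.63) in limma on log2(TPM + 1). The synthetases PRPS1 and PRPS2 did not pass, with log2 fold changes of -0.047 (95% interval -0.15 to 0.052) and 0.057 (95% interval -0.041 to 0.15).

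Free ribose and sedoheptulose enter through kinases and related enzymes. Of 5 tested genes 0 were called by the edgeR test of the text or by DESeq2, with 1 at an unadjusted p under 0.05 in each. In edgeR 1 was called higher with library size alone, with offsets for effective length and without shControl 1. The most abundant, PGM2, which acts on ribose phosphate, was 33.2, 35.5 and 35.4 TPM in shControl and 39.6, 40.0 and 42.5 TPM in shSTBD1, without overlap, at a log2 fold change of 0.12 (adjusted p = 0.057). Of 13 tested genes that the branch shares with glycolysis or that steer sugar between them, 3 rose and 1 fell. ALDOC and the more abundant ALDOA, aldolases, rose by 0.22 (adjusted p = 0.0015) and 0.10 (adjusted p = 0.028). With the trend against effective length ALDOA was at 0.064 (adjusted p = 0.21). PFKFB4, a kinase that sets fructose 2,6-bisphosphate, fell by 0.16 on the log2 scale (adjusted p = 0.027). PFKM, a phosphofructokinase, was called at 0.11 (adjusted p = 0.024), but its sign turned to -0.038 in limma on log2(TPM + 1). Of 5 tested genes of hexose phosphate handling in the endoplasmic reticulum, where H6PD acts, SLC37A1, a sugar phosphate exchanger, was called at 0.25 (adjusted p = 0.022), with TPM that overlapped between the groups and a value of 0.12 (adjusted p = 0.60) in limma on log2(TPM + 1). MTHFD2, NQO1, ALDOA and PFKFB4 were called in 9, 8, 7 and 7 of the 18 alternative settings. SLC37A4, the glucose 6-phosphate transporter and the most abundant of this list, did not pass (-0.038, 95% interval -0.14 to 0.062). HSD11B1, the reductase that uses the NADPH of H6PD, had at most 1 expected count in any library, so that it was too low to test.

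**Figure D3:**
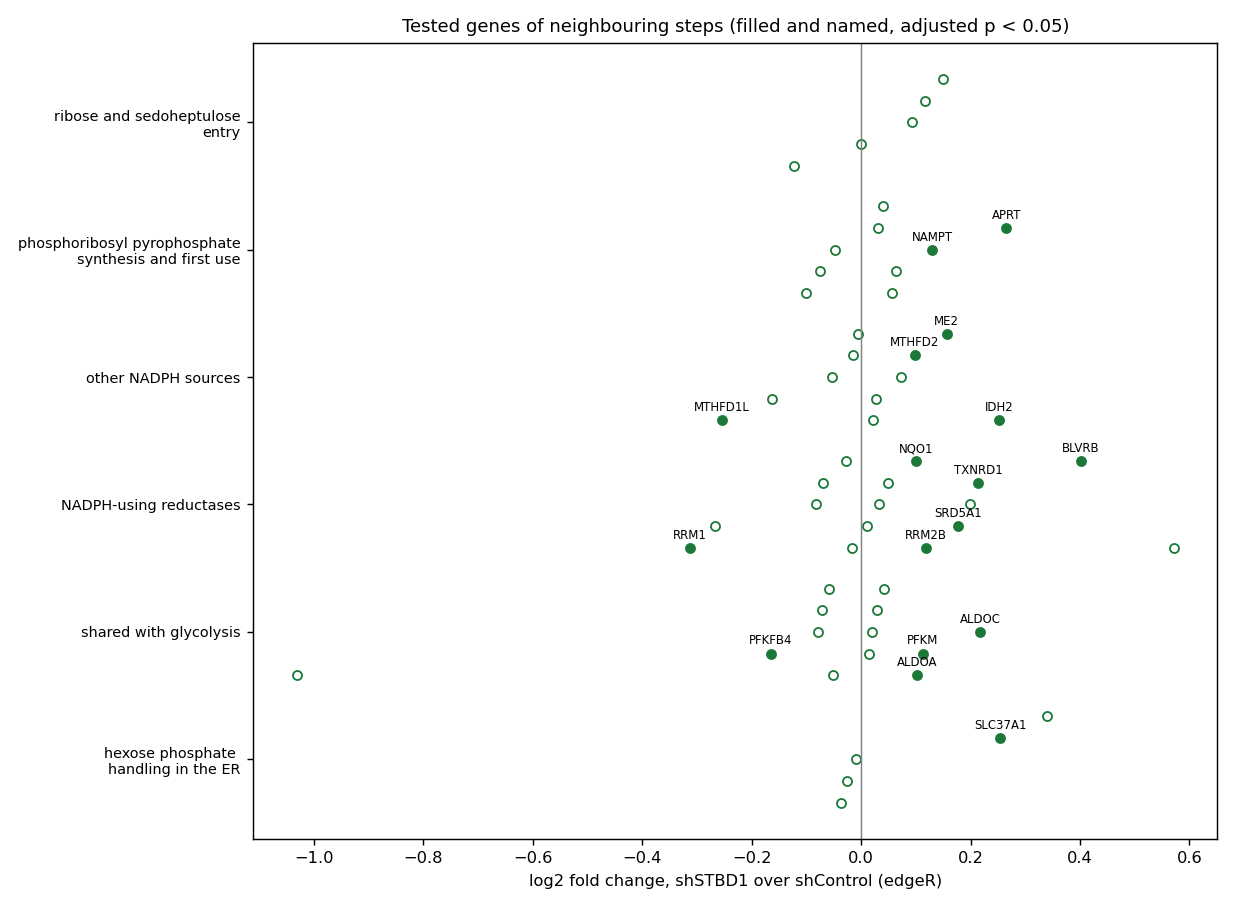
Each point is a tested gene of 1 of the 6 lists around the pathway, placed by its log2 fold change in shSTBD1 over shControl from edgeR, with points spread vertically only for legibility; filled, named points had an adjusted p under 0.05. The 14 filled points on the right include BLVRB at 0.40, and the 3 on the left are RRM1 at -0.31, MTHFD1L at -0.25 and PFKFB4 at -0.16.

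The direction of each oxidative enzyme was negative in all 18 alternative settings, whereas the calls depended on them. PGD was called in 17 of the 18, H6PD in 13 and PGLS in 6. With offsets for effective length or limma on log2(TPM + 1), PGD was the 1 enzyme called. TKT was negative in all 18 and called in 2, and RPE and TALDO1 were positive in all 18 and called in 0, with the smallest adjusted p at 0.093 for RPE and 0.12 for TALDO1.

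**Figure D4:**
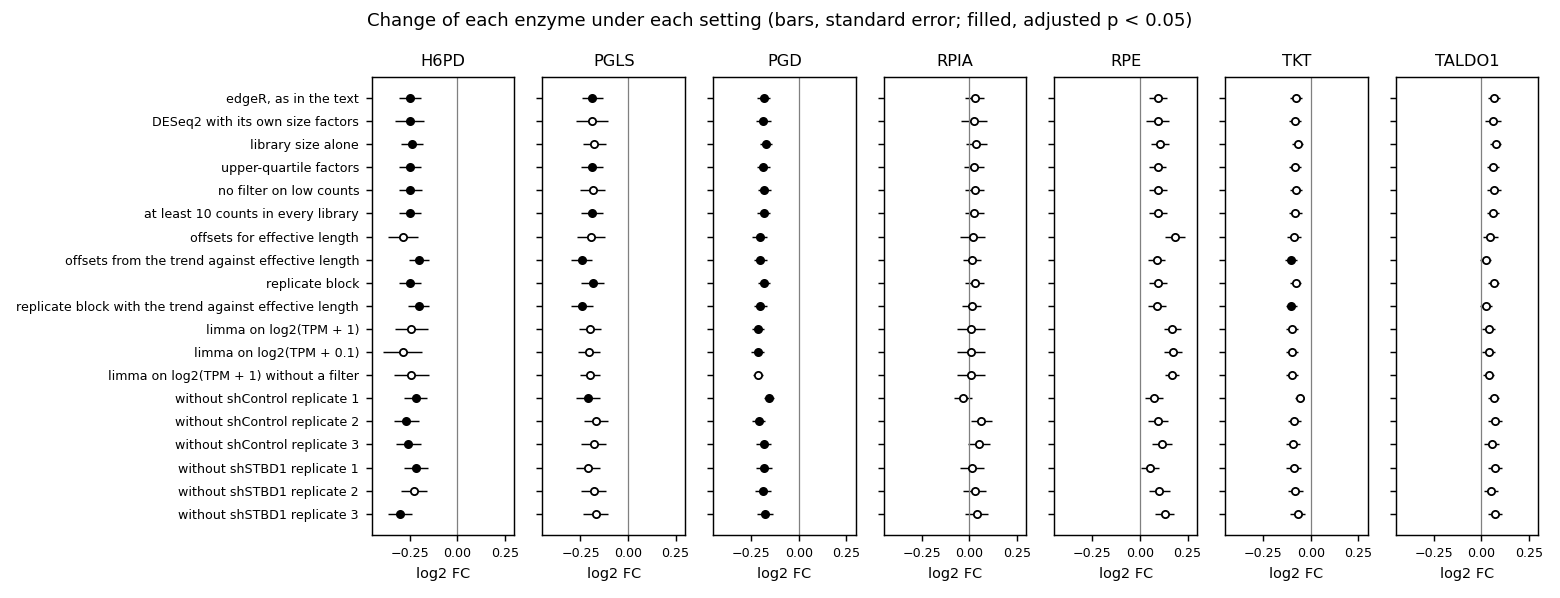
Each panel shows the log2 fold change of 1 enzyme in shSTBD1 over shControl under the test used in the text and the 18 alternatives named on the left, with the standard error as bars and filled points where the adjusted p was under 0.05. H6PD, PGLS, PGD and TKT stay left of 0 throughout, PGD is filled in all but 1 alternative, and RPIA crosses 0 without shControl replicate 1.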

How the data were processed

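RNA of 3 shControl and 3 shSTBD1 cultures, grouped by sample titles, is analysed. Per the labels and the study's methods, the authors aligned filtered reads to hg38 (Ensembl release 93) with STAR 2.7.1a and estimated abundance with RSEM 1.3.1. The deposited expected counts are not normalized. The TPM values, made by the authors with RSEM, are per effective length and scaled to the same sum in each library. The strand setting is not given in the sources used here.

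Gene IDs are matched to symbols for 57754 of 58395 genes. Expected counts are rounded, filtered by filterByExpr, scaled by TMM and tested with edgeR 4.0.16 (R 4.3.3, quasi-likelihood F-test, group only, Benjamini-Hochberg over all 15566 tested genes). Standard errors come from the fold change and F. Alternatives use DESeq2 1.42.0, limma 3.58.1, other scalings, filters and length offsets, a replicate block, and each library left out. The scripts are tested on simulated counts. Positions are from GENCODE release 44 on GRCh38, the same build as hg38, and promoters from RefSeq (7 of 7 matched, 6 at the canonical start).

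The enzymes and lists were chosen with earlier results of these data known. Named genes are the 7 enzymes, STBD1, the called genes of each list with its most abundant gene, copies of the enzymes at 1 TPM or more (none), and the closest profile of each called enzyme. WDR81, SLC39A6 and TAF1 follow from that rule. Further genes named with a value (PRPS1, PRPS2, HSD11B1, EPCAM) were chosen after their values were seen.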

Additional observations from a re-analysis of the deposited data

How the results depend on the processing

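With offsets for effective length, limma on log2(TPM + 1), limma on log2(TPM + 0.1) and limma on log2(TPM + 1) without a filter, called genes numbered 511, 292, 291 and 61 in place of 2453. Called enzymes numbered 1, 1, 1 and 0 of 7, with 5 at an unadjusted p under 0.05 in each. Called genes of the 6 lists numbered 6, 0, 0 and 0 in place of 17, with 18, 19, 18 and 19 at an unadjusted p under 0.05. In these settings H6PD was at -0.28, -0.24, -0.29 and -0.24 and PGLS at -0.20, -0.20, -0.21 and -0.20 on the log2 scale, all no longer called, and PGD lost its call only in the last, at -0.21. The cause was not tested.

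PGLS was also not called with DESeq2 (-0.19), library size alone (-0.18) and no filter on low counts (-0.19). TKT became called with the trend against effective length, at -0.10 without and -0.10 with the block. RRM2B turned to -0.033, -0.041, -0.042 and -0.041 and PFKM to -0.027, -0.038, -0.038 and -0.038 in the 4 settings of the first sentence. The other settings kept the direction of each enzyme, RPIA without shControl 1 apart, at -0.033.

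With 1 library left out, called genes ranged from 1409 to 2577, called enzymes from 1 (without shSTBD1 2) to 3 and called list genes from 7 to 19. The log2 fold change ranged from -0.30 to -0.22 for H6PD, from -0.21 to -0.17 for PGLS and from -0.033 to 0.063 for RPIA.

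With the replicate number as a block, 3 enzymes, 17 list genes and 2579 genes in all were called, and the block changed no call on an enzyme or a called list gene (PGLS at an adjusted p of 0.042). Same-numbered libraries deviated together little (correlations across genes from -0.0084 to 0.071, against -0.074 to 0.010 for other pairs), so the numbers are not taken as pairs. Of the 71 list genes 12 had too few counts to test, and the part of sequencing depth in this was not tested. Among the enzymes PGLS had the fewest expected counts, 474 to 610 per library, followed by H6PD with 556 to 773.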
